A study of Mus musculus with 12 samples.

Results

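CD8+ T cells from tumours treated with the SRT-like mode of radiotherapy were compared with CD8+ T cells from tumours treated with the CRT mode, across all 773 probes of a mouse immune exhaustion panel. The comparison held 3 SRT-like and 3 CRT samples, 6 of the 12 samples measured, chosen by the treatment named in their labels. The other samples were 3 from the SRT mode and 3 Nontreated controls, and they are given where they place the SRT-like and CRT values. All samples were cells sorted for CD8 after enrichment on CD45 from digested MC38 tumours, a mouse colon carcinoma line, grown in C57BL/6J mice. Radiation of 20 Gy was given at a tumour size of 40 to 100 mm3. The labels do not spell out SRT, CRT or SRT-like, so the names are used as they stand, and they give no age, sex or number of mice. Separate mice are not stated for samples of 1 group, so the p-values reflect no more than the variation among these samples, and that variation may be technical. The SRT-like samples carry the 3 highest of the 12 sample numbers in the labels. Whether those numbers mark a separate run is not stated, and a run could not be told apart from the SRT-like mode.

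CD8 T cells recognise peptides on MHC class I and kill with granzymes and perforin. In a tumour they are driven by repeated antigen towards exhaustion, a state marked by inhibitory receptors such as PD-1 (Pdcd1) and by the transcription factor TOX, while a less differentiated pool marked by TCF-1 (Tcf7) renews them. Some stay in the tissue as resident memory cells, which hold on to epithelium through the integrin CD103 (Itgae). Radiation can release nucleic acids that are sensed in the tumour and lead to type I interferon, which binds its receptor on most cells and switches on a shared set of antiviral genes through a complex of transcription factors. That complex binds the interferon-stimulated response element, while genes needed for DNA replication are controlled by E2F factors.

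No probe passed an adjusted p of 0.05 between the SRT-like and CRT samples (limma with Benjamini-Hochberg adjustment over 773 probes, 0%), and the smallest adjusted p was 0.369. Every value below is therefore a measured difference that did not pass the test. Without adjustment, 76 probes (9.83%) had a p under 0.05, of which 23 (2.98%) were higher and 53 (6.86%) lower in SRT-like. A higher mean in SRT-like was held by 35.2% of all probes and a lower mean by 64.8%. The groups did not overlap for 40 probes (5.17%) with every SRT-like sample above every CRT sample and for 103 (13.3%) with every SRT-like sample below. Among the genes that stood higher in SRT-like were Itgae and Zfp683 of tissue residency, Xcl1 and Ccr7 of the stem-like and memory list and the granzymes Gzmd and Gzmf. All measured genes of the interferon and cell cycle lists and some transcripts of antigen-presenting cells stood lower.

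The sequences just before the start sites of 4 genes from the interferon and cell cycle groups are shown because the members of each group differed in 1 direction. They are from RefSeq on GRCm38.p6, written 5′ to 3′ in the direction of the gene. Capitals mark every match, on either strand, to the core letters of the interferon-stimulated response element (GAAA, any 2 bases, GAAA) in Ifit1, Bst2 and Rsad2, and to E2F letters in Mcm5. Ifit1 lies at chr19:34640639-34640888 on the plus strand, Bst2 at chr8:71537473-71537722 on the minus strand, Rsad2 at chr12:26456453-26456702 on the minus strand and Mcm5 at chr8:75109259-75109467 on the plus strand. Overlapping matches run together in Bst2 and in Mcm5, where they lie on opposite strands.
Ifit1: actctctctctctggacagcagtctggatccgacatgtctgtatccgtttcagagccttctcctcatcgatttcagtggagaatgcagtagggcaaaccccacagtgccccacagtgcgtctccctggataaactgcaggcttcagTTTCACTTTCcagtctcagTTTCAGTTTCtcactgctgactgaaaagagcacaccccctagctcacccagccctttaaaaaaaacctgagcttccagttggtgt
Bst2: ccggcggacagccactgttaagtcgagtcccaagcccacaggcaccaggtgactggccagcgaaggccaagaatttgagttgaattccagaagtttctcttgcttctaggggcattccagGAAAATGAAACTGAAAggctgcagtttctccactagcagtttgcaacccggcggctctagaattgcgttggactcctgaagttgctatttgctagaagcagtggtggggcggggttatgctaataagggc
Rsad2: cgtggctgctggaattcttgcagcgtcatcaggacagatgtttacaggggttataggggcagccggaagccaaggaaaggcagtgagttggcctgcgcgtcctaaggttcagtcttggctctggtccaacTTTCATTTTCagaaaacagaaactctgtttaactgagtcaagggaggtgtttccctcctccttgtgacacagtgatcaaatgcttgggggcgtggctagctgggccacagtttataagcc
Mcm5: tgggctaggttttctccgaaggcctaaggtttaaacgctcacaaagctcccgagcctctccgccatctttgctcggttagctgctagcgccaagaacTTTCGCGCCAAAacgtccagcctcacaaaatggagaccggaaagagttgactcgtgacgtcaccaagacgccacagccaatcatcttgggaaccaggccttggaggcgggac
Over the 250 bases before the start, the interferon element's core letters occurred in 978 of 32851 promoters (2.98%). Of the 14 genes behind the interferon probes, 10 had a promoter entry and 7 of those held the letters, namely Bst2, Ifit1, Ifit3, Ifit3b, Oas1a, Oas3 and Rsad2. Xaf1, Rnf213 and Cxcl9 held none, and Mx1, Mx2 and Oas2 were among those not matched. The E2F letters searched were TTTCCCGC, TTTGGCGC, TTTCGCGC and TTTGCCGC on both strands, and 611 promoters (1.86%) held one. They occurred for Cdc25a, Mcm5 and Mcm7, 3 of the 7 cell cycle genes measured. A match is a description of the letters and does not show that a factor was bound.

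All values are log2 values as the authors normalized them, so a difference of 1 is a doubling, and differences are SRT-like minus CRT with the standard error of the fit. The recovered molecule counts were 421066, 299545 and 267514 in the SRT-like samples and 299512, 160373 and 160828 in the CRT samples, within 118694 to 467904 over all samples. A set of 32 probes for genes of other tissues or a virus gave the background. Its mean on the linear scale was 8.47, 9.31 and 10.3 in SRT-like and 9.91, 14.5 and 14.5 in CRT, so background ran higher in the shallower CRT samples. A probe counted as above background where its value was over that mean by 2 SD, and 467 probes were so in every SRT-like or every CRT sample. The median difference was -0.05 over those probes, -0.30 over the other 306 and -0.51 over the background probes themselves, against -0.11 over all probes. Replicates correlated across probes with r of 0.978 to 0.983 within SRT-like and 0.968 to 0.980 within CRT, and SRT-like with CRT samples with 0.964 to 0.977. The CD8 T cell label fitted the markers, with a mean log2 value of the Cd3 and Cd8 probes of 11.39, 11.16 and 11.17 in SRT-like and 11.09, 11.18 and 10.96 in CRT.

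**Figure D1:**
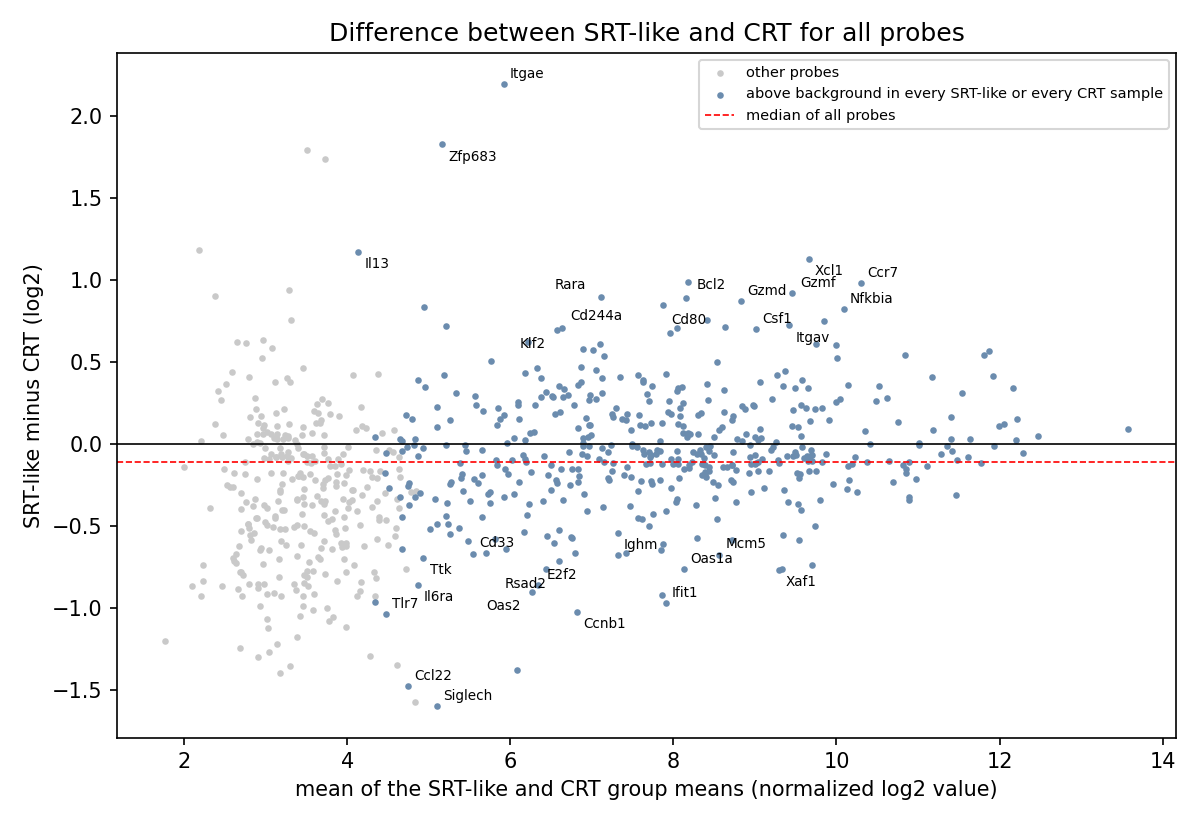
Each point is 1 of 773 probes, with the mean of the SRT-like and CRT group means (log2) on the x axis and the difference, SRT-like minus CRT (log2), on the y axis. Blue points are the 467 probes above background in every SRT-like or every CRT sample, grey points the other 306, and the dashed line is the median of all probes at -0.11. Itgae and Zfp683 stand highest among the blue points and Siglech lowest.

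Residency genes held the largest positive differences among the probes above background. Zfp683 encodes HOBIT, a transcription factor of tissue-resident lymphocytes. It read 6.09, 6.44 and 5.71 in the SRT-like samples and 4.47, 4.50 and 3.78 in the CRT samples. Every SRT-like value lay above every CRT value, and only 1 of the 3 CRT values was above background. The difference was 1.83 ± 0.40 (SE, n = 3 per group), with an adjusted p of 0.369 in limma, and since most CRT values were not above background its size is uncertain. With values under the highest background level of any sample raised to that level, the difference in Zfp683 was 1.14. In the SRT samples Zfp683 read 5.17, 5.66 and 5.56 and in the Nontreated samples 5.32, 3.77 and 5.25, so the CRT and Nontreated ranges overlapped.

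Itgae encodes the CD103 chain of the integrin that binds E-cadherin on epithelium. It read 6.95, 7.29 and 6.81 in SRT-like and 5.86, 4.01 and 4.59 in CRT. The groups did not overlap, CRT replicate 1 was the nearest to SRT-like, and the other CRT values were not above background. The difference was 2.19 ± 0.50 with an adjusted p of 0.369, and with the same floor under low values it was 1.77 for Itgae. Leaving out CRT replicate 2 brought it to 1.79, and leaving out CRT replicate 1 to 2.72. In the SRT samples Itgae read 5.83, 6.24 and 7.46 and in the Nontreated samples 6.14, 6.30 and 5.46. Its difference from Nontreated was 1.05 in SRT-like (limma adjusted p = 0.504) and -1.15 in CRT (limma adjusted p = 0.315), neither past the test. Since these are pools of sorted cells, fewer cells with a transcript and less RNA per cell cannot be told apart.

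The residency and adhesion list did not differ in 1 direction: 5 of 9 members were higher and 4 lower, with a median of 0.29. Over all probes, 35.2% had a higher mean in SRT-like. Itgae and Zfp683 were the 2 of 9 with every SRT-like sample above every CRT sample, against 5.17% of all probes. In 0 of 9 every SRT-like sample was below, against 13.3% of all probes. Ahr, a ligand-activated transcription factor of barrier tissue lymphocytes, differed by 0.29 ± 0.17, and Icam1, an adhesion ligand of the integrin LFA-1, by 0.39 ± 0.29. Itgav, an integrin alpha chain outside that list, read 9.75, 10.14 and 9.46 in SRT-like and 9.13, 8.98 and 9.06 in CRT. All SRT-like values were above all CRT values, with a difference of 0.73 ± 0.23 and an adjusted p of 0.369.

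Among 14 stem-like and memory genes, 10 were higher and 4 lower in SRT-like, with a median of 0.16, where 35.2% of all probes had a higher mean in SRT-like. In this list 4 had every SRT-like sample above every CRT sample, against 5.17% of all probes. Xcl1 encodes a chemokine that draws cross-presenting dendritic cells. It read 9.93, 10.50 and 10.25 in SRT-like and 9.65, 9.03 and 8.60 in CRT, a difference of 1.13 ± 0.28 with an interval of 0.50 to 1.76 and an adjusted p of 0.369. CRT replicate 1 lay close below the lowest SRT-like sample.

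Ccr7 encodes the receptor that guides lymphocytes to lymph nodes. It read 11.24, 10.61 and 10.54 in SRT-like and 10.11, 10.04 and 9.30 in CRT, and the groups did not overlap. The difference was 0.98 ± 0.28, with an interval of 0.35 to 1.61 and an adjusted p of 0.369. The Nontreated samples read 11.33, 10.64 and 10.71, so SRT-like lay near the Nontreated samples, with a difference from it of -0.10, and CRT below it, by -1.08, which did not pass the test (adjusted p = 0.0772).

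Klf2, a transcription factor that keeps T cells quiescent and circulating, read 6.66, 6.92 and 7.19 in SRT-like and 6.05, 6.12 and 6.51 in CRT. Its difference was 0.70 ± 0.27 with an adjusted p of 0.474. Against Nontreated, Klf2 was 1.46 higher in SRT-like (adjusted p = 0.0421) and 0.76 higher in CRT (adjusted p = 0.2), so only the SRT-like contrast passed, while the 2 modes themselves did not differ by the test. Bcl2, which blocks mitochondrial apoptosis, read 8.37, 8.86 and 8.58 in SRT-like and 7.26, 7.94 and 7.94 in CRT, a difference of 0.89 ± 0.46. The genes that define the renewing pool showed small differences with overlapping groups. Tcf7 differed by 0.18 with an interval of -0.56 to 0.92, and Slamf6, a surface marker of that pool, by 0.04 with an interval of -0.43 to 0.50. Il7r, the receptor chain for the survival cytokine IL-7, differed by 0.61 ± 0.32, also with overlap.

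Effector and cytotoxic genes were higher for 13 of 22 members, with a median of 0.14. The 3 members with non-overlapping groups, against 5.17% of all probes on the higher side, were granzymes. Gzmd read 9.42, 9.19 and 9.17 in SRT-like and 8.28, 8.45 and 8.44 in CRT, a difference of 0.87 ± 0.27 with an adjusted p of 0.369. Gzmf read 10.02, 9.74 and 9.98 against 9.06, 8.98 and 8.93 in CRT, a difference of 0.92 ± 0.43. Gzme read 7.35, 7.09 and 7.10 against 6.55, 6.62 and 6.64 in CRT, a difference of 0.58 ± 0.26. In the SRT samples the means were 9.26 for Gzmd, 9.65 for Gzmf and 7.14 for Gzme, above the CRT means as in SRT-like. The Nontreated means were 8.06, 8.55 and 6.24. These granzymes are close relatives in the mouse, and a probe for one could take up RNA of another.

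The main killing genes did not share that direction. Gzmb, the granzyme that activates caspases in target cells, read 10.52, 10.58 and 11.09 in SRT-like and 10.63, 11.04 and 11.48 in CRT, a difference of -0.32 with an interval of -1.05 to 0.41. Prf1, the pore-forming perforin, differed by -0.34 with an interval of -0.85 to 0.18. The groups overlapped for both. The cytokine genes Ifng and Tnf differed by 0.17 and 0.12, with intervals of -0.61 to 0.94 and -0.69 to 0.92. Ccl5, a chemokine of effector T cells, differed by 0.42 ± 0.22 with overlap.

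**Figure D2:**
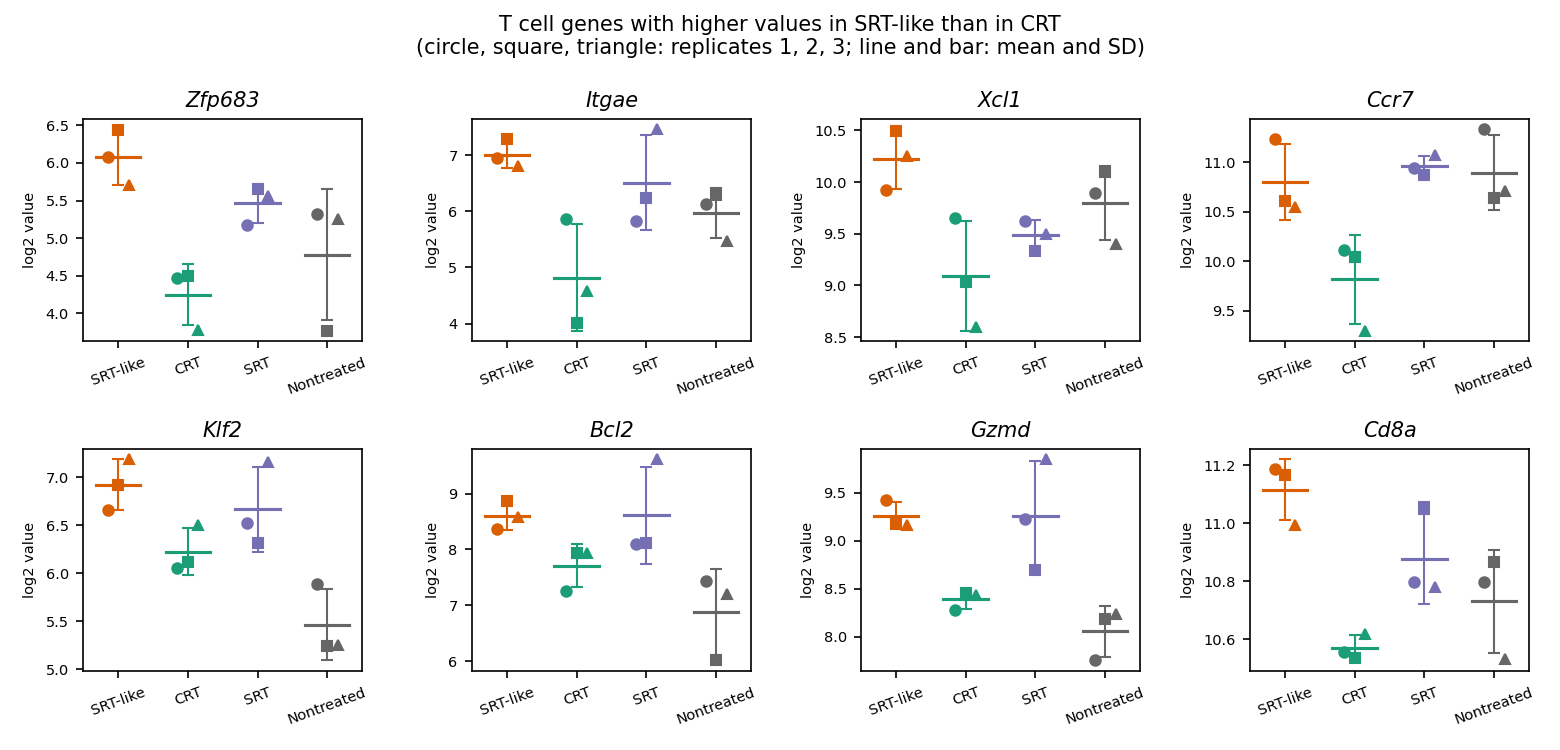
Log2 values (y axis) of genes that stood higher in SRT-like, by group (x axis: SRT-like, CRT, SRT, Nontreated), with replicates 1, 2 and 3 as circle, square and triangle and the line and bar as mean and SD. The SRT-like points lie above every CRT point for Itgae, Zfp683, Xcl1, Ccr7 and Gzmd, and the CRT points of Itgae spread from 4.01 to 5.86.

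The inhibitory receptor list had 9 of 17 members higher and 8 lower and a median of 0.03. Over all probes, 35.2% had a higher mean in SRT-like and the median was -0.11. Every SRT-like sample was above every CRT sample in 4 of 17, against 5.17% of all probes. In 1 of 17 every SRT-like sample was below, against 13.3% of all probes. Pdcd1, which encodes PD-1, read 12.19, 12.39 and 11.89 in SRT-like and 11.41, 11.37 and 11.97 in CRT. CRT replicate 3 lay within the SRT-like range, and the difference was 0.57 ± 0.25 with an adjusted p of 0.497. Cd244a encodes the receptor 2B4 and read 6.98, 7.02 and 6.95 in SRT-like and 6.10, 6.52 and 6.20 in CRT. All its SRT-like samples were above all CRT samples, with a difference of 0.71 ± 0.25. Cd96, another member, differed by 0.35 ± 0.18, also without overlap.

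For the other checkpoint receptors the intervals give the size of difference that the samples allow. Havcr2, which encodes TIM-3, differed by -0.05 with an interval of -0.48 to 0.38, and its sign, like those of Lag3 and Ctla4, turned when each sample was centred on its median probe. Lag3, a receptor for MHC class II, differed by -0.01 with an interval of -0.61 to 0.60. It read 11.16, 11.18 and 10.69 in SRT-like and 10.69, 10.73 and 11.63 in CRT, so CRT replicate 3 alone was above all others. Ctla4, which competes with CD28 for its ligands, differed by -0.11 with an interval of -0.52 to 0.30. Tigit, a receptor that competes for the ligand of CD226, differed by 0.26 without overlap, with an interval of -0.21 to 0.73. Entpd1, the ectonucleotidase CD39 of terminally exhausted cells, differed by -0.40 with an interval of -0.94 to 0.13. Vsir, which encodes the checkpoint protein VISTA, read 9.24, 9.45 and 9.33 in SRT-like and 9.53, 9.66 and 9.93 in CRT and differed by -0.37 ± 0.17 without overlap.

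Exhaustion and effector transcription factors were higher for 6 of 11 members, with a median of 0.07, where 35.2% of all probes had a higher mean. Tox read 7.28, 7.14 and 7.43 in SRT-like and 7.00, 6.86 and 7.04 in CRT. It was the 1 of 11 members whose groups did not overlap, against 5.17% of all probes on the higher side. Its difference was 0.31 ± 0.19, with an interval of -0.11 to 0.73. Tbx21 encodes T-bet, the driver of effector differentiation, and differed by 0.71 ± 0.27 with overlap. Nr4a1, an early gene of T cell receptor signalling, differed by 0.60 ± 0.32, with SRT-like replicate 1 at 9.53 inside the CRT range of 9.45 to 9.89. Eomes, a T-box factor of memory and exhausted cells, was the lowest member at -0.19.

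Of 26 T cell receptor signalling genes, 14 were higher and 12 lower, with a median of 0.01, where 35.2% of all probes had a higher mean. Every SRT-like sample was above every CRT sample in 4 of 26, against 5.17% of all probes. In 2 of 26 every SRT-like sample was below, against 13.3% of all probes. Cd8a, the alpha chain of the CD8 co-receptor on which the cells were sorted, read 11.19, 11.17 and 11.00 in SRT-like and 10.56, 10.53 and 10.62 in CRT. The groups did not overlap, and the difference was 0.55 ± 0.16 with an interval of 0.20 to 0.90 and an adjusted p of 0.369. Its partner chain Cd8b1 differed by -0.06 with an interval of -0.68 to 0.55, and its sign turned under median centring. The CD3 chains differed by 0.03 for Cd3d, 0.28 for Cd3e and 0.03 for Cd3g, all with overlap. Ptpn6, the phosphatase SHP-1 that dampens receptor signals, differed by 0.37 ± 0.19 without overlap. Cbl differed by 0.27 ± 0.16 and Sos1 by -0.38 ± 0.22, both also without overlap.

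Cytokine signalling genes of the common gamma chain and JAK-STAT list were higher for 13 of 17 members, with a median of 0.27. No member had every SRT-like sample above every CRT sample, against 5.17% of all probes. In 1 of 17 every SRT-like sample was below, against 13.3% of all probes. Cish, which encodes an inhibitor induced by cytokine and receptor signals, differed by 0.75 ± 0.28, and Jak3, the kinase bound to the common gamma chain, by 0.38 ± 0.19. Of the NF-kB and AP-1 list, 10 of 13 members were higher, with a median of 0.21. Nfkbia encodes the inhibitor that NF-kB itself induces, and read 9.89, 10.63 and 10.97 in SRT-like and 9.84, 9.41 and 9.78 in CRT. SRT-like replicate 1 lay just above CRT replicate 1, and the difference was 0.82 ± 0.30. Junb, an AP-1 subunit, differed by 0.54 ± 0.23 with overlap.

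Other genes without overlap on the high side had varied roles. Rara, a retinoic acid receptor, read 7.28, 7.86 and 7.53 in SRT-like and 7.10, 6.55 and 6.33 in CRT, a difference of 0.89 ± 0.27. Cd80 encodes a partner of CD28 that CTLA-4 also binds, and read 8.04, 8.56 and 8.29 in SRT-like and 7.69, 7.42 and 7.24 in CRT, a difference of 0.85 ± 0.38. Against Nontreated, Cd80 was higher by 2.13 in SRT-like (adjusted p = 0.0421) and by 1.29 in CRT (adjusted p = 0.116). Csf1, a growth factor of macrophages, differed by 0.70 ± 0.35. Il13, a type 2 cytokine, read 4.35, 4.73 and 5.08 in SRT-like and 3.41, 3.86 and 3.36 in CRT (limma adjusted p = 0.369). It was above background in 3 of 3 SRT-like and 0 of 3 CRT samples, so the size of its difference is uncertain. With values under the highest background level of any sample raised to that level, the difference in Il13 was 0.05.

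All 13 measured genes of the type I interferon response list were lower in SRT-like, with a median of -0.74 against -0.11 over all probes, of which 64.8% were lower. In 7 of 13 every SRT-like sample was below every CRT sample, against 13.3% of all probes. An unadjusted p under 0.05 was reached by 5, against 6.86% of all probes on the lower side, and none passed after adjustment. Members differed by -0.97 for Ifit1 to -0.28 for Cxcl9, the only member not above background in every SRT-like or every CRT sample. Summed on the linear scale, the list ran from 4084 to 6018 in SRT-like and 6271 to 8181 in CRT, with no overlap. The SRT samples ran from 3837 to 5918 and the Nontreated samples from 2243 to 3256.

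Ifit1 encodes an antiviral protein that binds viral RNA caps. It read 7.05, 7.12 and 8.10 in SRT-like and 8.16, 8.76 and 8.25 in CRT. SRT-like replicate 3 lay just below the lowest CRT sample, and the difference was -0.97 ± 0.42 with an interval of -1.91 to -0.03 and an adjusted p of 0.497. Without SRT-like replicate 3 it was -1.31. Oas1a, which makes the messenger that activates the antiviral nuclease RNase L, read 7.60, 7.51 and 8.11 in SRT-like and 8.24, 8.56 and 8.71 in CRT, a difference of -0.76 ± 0.33. Its relative Oas2 read 5.21, 6.05 and 6.18 in SRT-like and 6.22, 6.78 and 7.14 in CRT, a difference of -0.90 ± 0.39. All SRT-like samples lay below all CRT samples for both.

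Xaf1, an interferon-induced promoter of apoptosis, read 8.61, 8.82 and 9.31 in SRT-like and 9.37, 9.87 and 9.79 in CRT, a difference of -0.76 ± 0.29 with an adjusted p of 0.47. Rsad2 encodes viperin, an antiviral enzyme, and read 5.68, 6.15 and 6.34 in SRT-like and 6.52, 7.05 and 6.89 in CRT. Its difference was -0.76 ± 0.35. In both genes SRT-like replicate 3 was the closest to CRT. Bst2, which encodes tetherin, read 8.66, 8.70 and 9.48 in SRT-like and 9.70, 10.01 and 9.42 in CRT, with overlap through SRT-like replicate 3. Ifit3/3b and Mx2 differed by -0.74 and -0.71, also with overlap, and the Ifit3/3b probe cannot tell its 2 genes apart. Leaving out SRT-like replicate 1 brought the list's median to -0.51, and without SRT-like replicate 3 it was -0.95 with 12 of 13 members lower. In every other alternative tried, all members tested were lower.

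Set beside Nontreated, which both contrasts share, the median of the interferon list was 1.22 in SRT-like and 2.12 in CRT, with 12 of 13 members higher in each. Over all probes those medians were 0.15 and 0.26, with 500 of 773 probes higher in SRT-like and 597 in CRT. Rsad2 was higher than Nontreated by 1.87 in SRT-like (adjusted p = 0.0421) and by 2.63 in CRT (adjusted p = 0.011). Oas1a was higher by 1.15 in SRT-like (adjusted p = 0.211) and by 1.91 in CRT (adjusted p = 0.0151). Xaf1 was higher by 0.97 in SRT-like (adjusted p = 0.239) and by 1.74 in CRT (adjusted p = 0.0151). For these genes the CRT values lay farther above Nontreated than the SRT-like values did, and the difference between SRT-like and CRT itself did not pass the test. Over all probes, 5 (0.647%) passed for SRT-like against Nontreated and 24 (3.10%) for CRT against Nontreated. The SRT mode was also lower than CRT for 12 of 13 members, with a median of -0.81, a contrast that uses the same CRT samples. Over all probes 448 of 773 were lower in SRT than in CRT, with a median of -0.06.

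All 7 cell cycle genes measured were lower in SRT-like, with a median of -0.66, and this held for 7 of 7 under every alternative tried. Every SRT-like sample was below every CRT sample in 4 of 7, against 13.3% of all probes, and 5 had an unadjusted p under 0.05, against 6.86% on the lower side, with none past the test after adjustment. E2f2, a transcription factor of the entry into S phase, read 5.66, 5.90 and 6.18 in SRT-like and 6.31, 6.92 and 7.08 in CRT, a difference of -0.86 ± 0.26 with an adjusted p of 0.369. Mcm5, a subunit of the replicative helicase, read 8.25, 7.79 and 8.63 in SRT-like and 8.89, 8.90 and 8.89 in CRT. The CRT samples were nearly equal, SRT-like spread below them, and the difference was -0.67 ± 0.22 with an adjusted p of 0.369.

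Cdc25a, a phosphatase that activates cyclin-dependent kinases, read 6.57, 6.43 and 6.39 in SRT-like and 7.14, 7.35 and 6.89 in CRT, a difference of -0.66 ± 0.21. Ccnb1, the mitotic cyclin B1, read 6.69, 5.59 and 6.65 in SRT-like and 7.66, 7.48 and 6.84 in CRT, a difference of -1.02 ± 0.35. SRT-like replicate 2 was low for Ccnb1 and Mcm5, and without it the differences were -0.66 and -0.46. Outside the list, Ttk, a kinase of the spindle checkpoint, read 4.63, 4.38 and 4.76 in SRT-like and 5.14, 5.33 and 5.36 in CRT. It differed by -0.69 ± 0.20 without overlap, but its SRT-like values lay near background. The background level was 4.33 in SRT-like replicate 2. With values under the highest background level of any sample raised to that level, the difference in Ttk was -0.34. Chek1, a kinase of the replication checkpoint, differed by -0.36 ± 0.17. The summed level of the list ran from 735 to 1271 in SRT-like and 1439 to 1657 in CRT, against 971 to 1165 in SRT and 902 to 1154 in Nontreated. The median against Nontreated was -0.03 in SRT-like and 0.61 in CRT, against 0.15 and 0.26 over all probes. By these values SRT-like and SRT lay near the Nontreated samples and CRT above them.

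**Figure D3:**
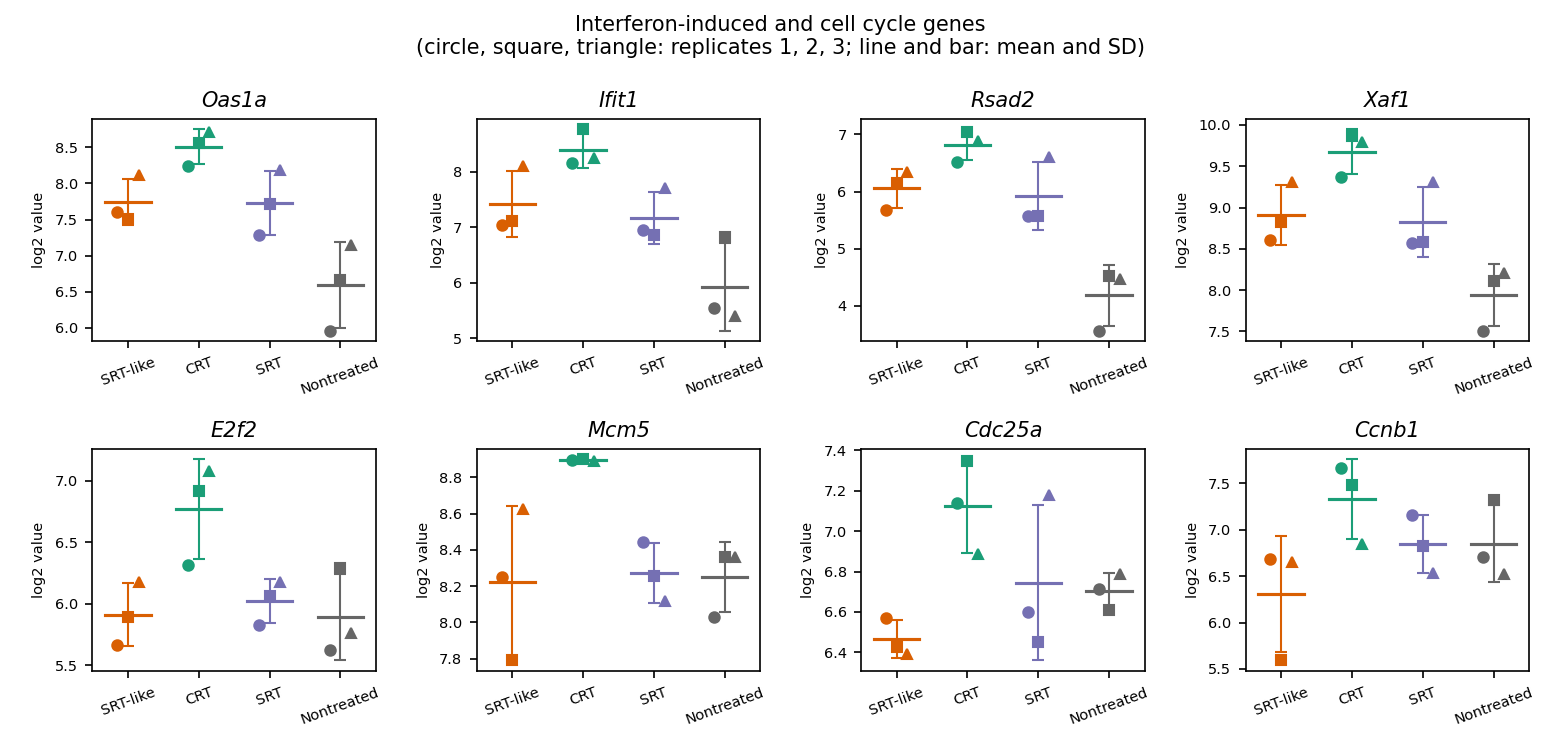
Log2 values (y axis) of interferon-induced genes (upper row) and cell cycle genes (lower row) by group (x axis: SRT-like, CRT, SRT, Nontreated), with replicates 1, 2 and 3 as circle, square and triangle and the line and bar as mean and SD. The CRT points lie above all SRT-like points in each panel, and in the upper row all SRT-like points lie above all Nontreated points.

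Chemokine receptors were lower for 4 of 6 members, with a median of -0.13, which was 0.05 without CRT replicate 2. Cxcr3, the receptor for interferon-induced chemokines, read 8.05, 7.78 and 8.19 in SRT-like and 8.60, 8.78 and 8.36 in CRT, a difference of -0.57 ± 0.22 without overlap. Against Nontreated it was 0.66 higher in SRT-like (adjusted p = 0.26) and 1.23 higher in CRT (adjusted p = 0.0162). Ccr2 and Ccr1 differed by -0.13 and 0.20 with overlap. Casp8, the initiator caspase of death receptors, read 9.35, 9.42 and 9.30 in SRT-like and 9.53, 9.80 and 9.95 in CRT, a difference of -0.40 ± 0.17. Pik3cb, a catalytic subunit of PI3 kinase, differed by -0.48 ± 0.19 without overlap.

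Some transcripts of other immune cells also stood lower in SRT-like. All 12 macrophage and monocyte markers were lower, with a median of -0.51, which equals the median of the background probes to 2 decimals, and 8 of the 12 were not above background in every SRT-like or every CRT sample. Their summed level ran from 667 to 772 in SRT-like and 826 to 1168 in CRT, and 5 to 7 of 12 were above background in a SRT-like sample, against 4 to 5 in a CRT sample. With values under the highest background level raised to that level, the median was -0.02 and 6 of 12 were lower. Neither Csf1r nor Cd14, the defining macrophage markers, exceeded background in any SRT-like or CRT sample. Tyrobp, an adaptor of myeloid and NK cell receptors, read 4.83, 5.44 and 5.90 in SRT-like and 7.31, 7.13 and 5.87 in CRT. CRT replicates 1 and 2 were high and CRT replicate 3 lay within SRT-like, with a difference of -1.38 ± 0.39 and an adjusted p of 0.369. Cd86, a ligand of CD28, read 7.44, 7.29 and 7.61 in SRT-like and 7.91, 8.08 and 7.85 in CRT, and Cd68, a lysosomal protein of macrophages, differed by -0.36 ± 0.18, both without overlap.

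Of 9 dendritic and antigen-presenting cell markers 6 were lower, with a median of -0.60. Siglech, a marker of plasmacytoid dendritic cells, read 3.55, 4.31 and 5.04 in SRT-like and 6.41, 6.18 and 5.10 in CRT, a difference of -1.60 ± 0.44. Only 1 of 3 SRT-like values was above background, and with low values raised to the highest background level the difference in Siglech was -0.92. Ccl22, a chemokine of mature dendritic cells, read 4.00, 4.24 and 3.76 in SRT-like and 6.12, 5.28 and 5.03 in CRT, a difference of -1.47 ± 0.51. Ccl22 too was above background in only 1 of 3 SRT-like samples, and with the same floor its difference was -0.53. H2-Aa, an MHC class II chain, read 7.54, 7.44 and 7.24 in SRT-like and 9.41, 8.72 and 6.84 in CRT. CRT replicate 1 was highest and CRT replicate 3 lowest of all 6 samples, so the group difference of -0.92 ± 0.57 rested on 2 CRT samples. The list's median was 0.15 without CRT replicate 1 and -1.32 without CRT replicate 3. Cd40, a receptor of antigen-presenting cells, was above background in 0 of 3 SRT-like and 2 of 3 CRT samples, and no size of its difference is given. The other 3 markers were higher in SRT-like. Among them, Cd80 differed by 0.85 ± 0.38 without overlap, and Itgax, an integrin chain of dendritic cells, by 0.47 ± 0.26 with overlap. Of the 9 markers, 2 had every SRT-like sample above every CRT sample, against 5.17% of all probes. Another 3 had every SRT-like sample below, against 13.3% of all probes.

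The MHC class II list was lower for 7 of 8 members, with a median of -0.41 and no member without overlap, and without CRT replicate 1 the median was 0.04. B and plasma cell markers were lower for 5 of 8, with a median of -0.27 and summed levels of 183 to 258 in SRT-like and 266 to 377 in CRT. Without CRT replicate 3 their median was 0.05. Ighm, the heavy chain of IgM, read 7.19, 6.44 and 7.30 in SRT-like and 7.78, 7.33 and 7.84 in CRT, a difference of -0.67 ± 0.26, while the defining B cell marker Ms4a1 was above background in 0 of 3 samples of each group. CD4 and regulatory T cell markers were lower for 6 of 10, with a median of -0.13, where 64.8% of all probes were lower. Of the 10, 5 were above background in every SRT-like or every CRT sample, and Il13 and Cd40lg were so only through SRT-like. Without SRT-like replicate 1 the list's median was 0.04, and Cd4 itself was above background in 0 of 3 samples of each group. Natural killer markers were lower for 4 of 5, with a median of -0.11, and tumour and stroma markers for 3 of 4, with a median of -0.14, which was 0.04 without CRT replicate 3. The part of these cells, of depth and of background in the interferon, cell cycle and residency differences was not tested.

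**Figure D4:**
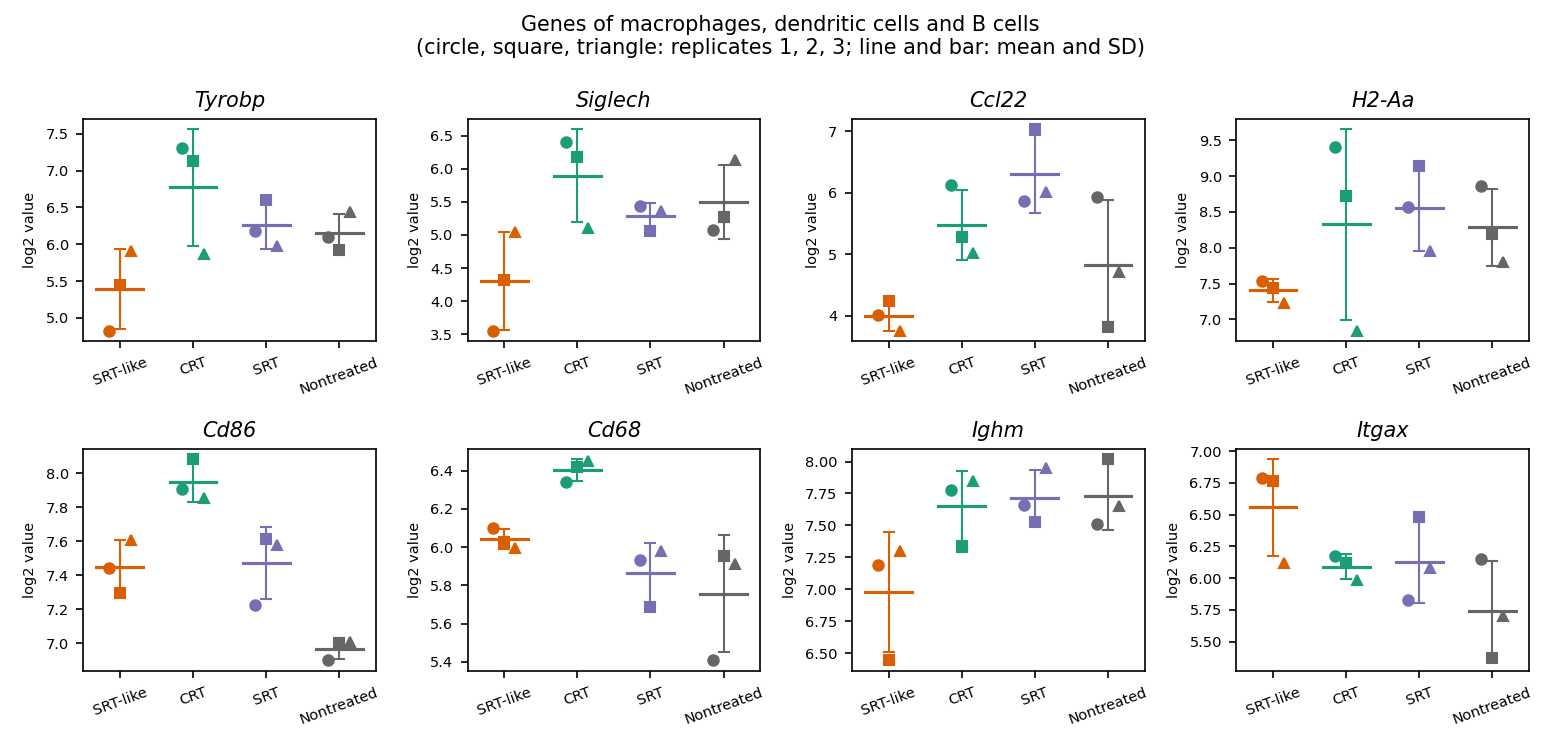
Log2 values (y axis) of genes of macrophages, dendritic cells and B cells by group (x axis: SRT-like, CRT, SRT, Nontreated), with replicates 1, 2 and 3 as circle, square and triangle and the line and bar as mean and SD. CRT replicates 1 and 2 stand high for Tyrobp, Siglech and H2-Aa, and CRT replicate 3 lies within or near the SRT-like points.

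The remaining lists showed no common direction or small medians. Co-stimulation genes were higher for 9 of 17, with a median of 0.08. Apoptosis genes were lower for 10 of 14, with a median of -0.06, and p53 and DNA damage genes for 6 of 10, with a median of -0.01. MHC class I and antigen processing genes were split 5 to 5, with a median of 0.02. PI3K and mTOR genes were lower for 9 of 13, with a median of -0.14, and TGF-beta genes for 4 of 5, with a median of -0.24. Smad3, a signal carrier of TGF-beta, differed by -0.51 ± 0.26 and Tgfb1, the ligand, by 0.41 ± 0.22. Glycolysis and hypoxia genes were higher for 3 of 4, with a median of 0.14, and fatty acid and mitochondrial genes lower for 7 of 9, with a median of -0.11. Small medians also turned in sign when 1 replicate was left out, in more cases than those given here. The apoptosis median was 0.08 without SRT-like replicate 1, the exhaustion factor median -0.11 without SRT-like replicate 2, and without CRT replicate 1 the medians were -0.03 for inhibitory receptors, -0.03 for co-stimulation and -0.03 for T cell receptor signalling.

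**Figure D5:**
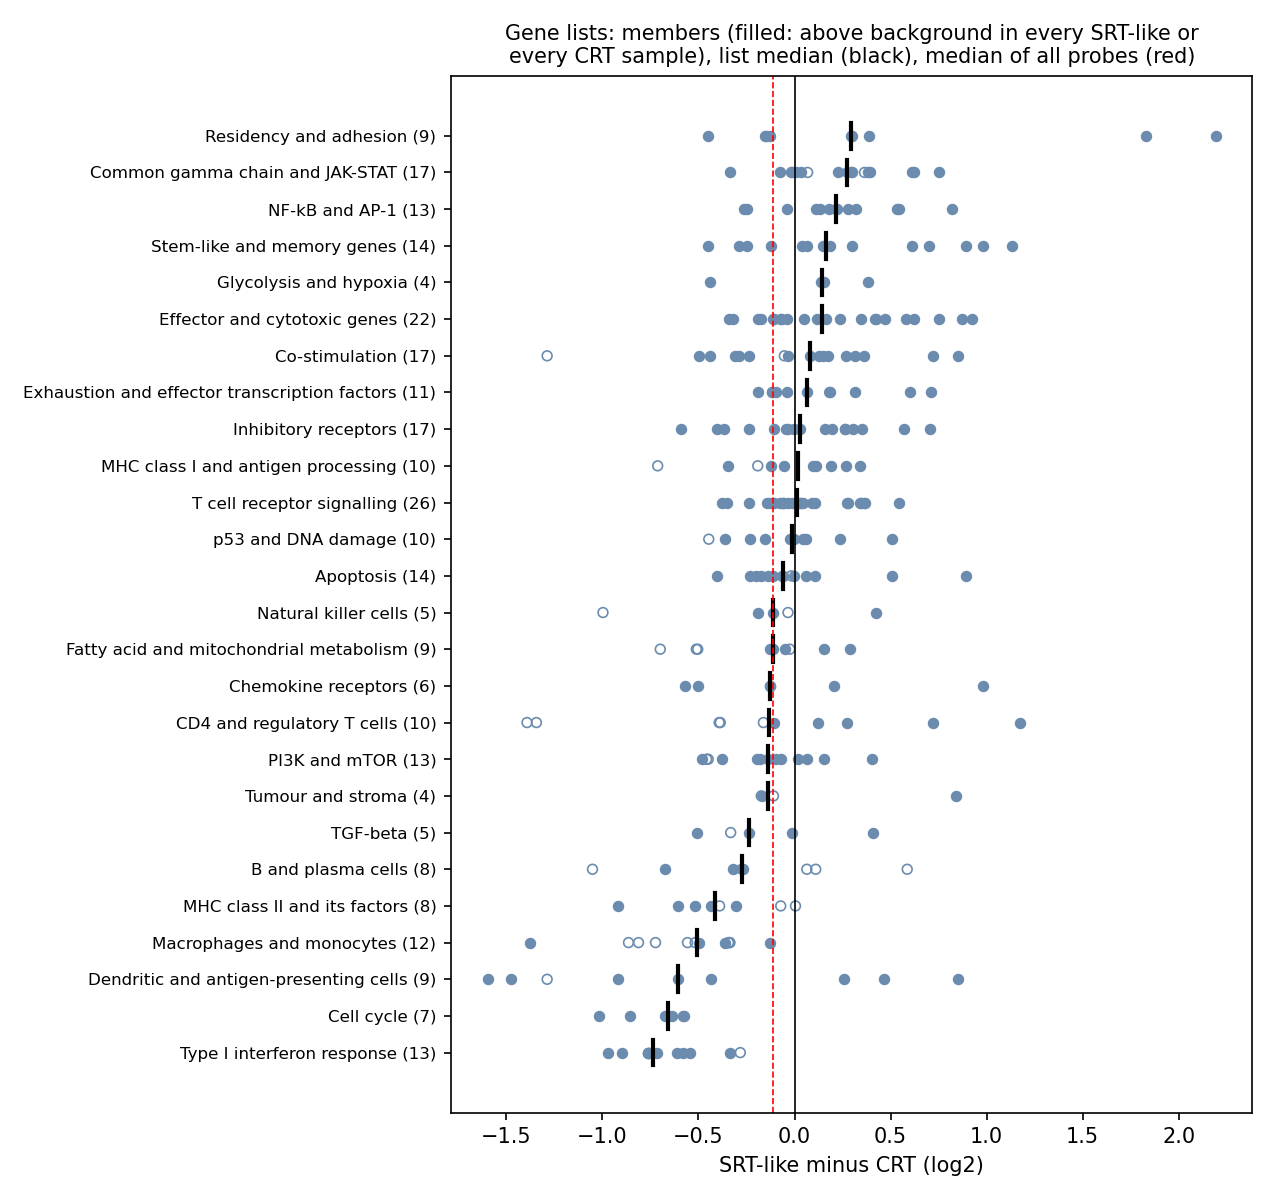
Differences of the members (points, SRT-like minus CRT, log2, x axis) for each gene list (y axis), with the median of each list marked and the median over all probes as the dashed line at -0.11. All points of the interferon and cell cycle lists lie below 0, as do those of the macrophage and monocyte list.

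The direction of the overall shift depended on the scaling. With each sample centred on its median probe, the median of all probes was 0.03 in place of -0.11, and 81 probes had every SRT-like sample above and 54 every SRT-like sample below, in place of 40 and 103. The share of probes with a higher mean in SRT-like was then 54.2% in place of 35.2%. The 95% interval reached a median of 0.49 to each side of the difference over the probes above background and 0.66 over all probes, so a smaller difference could not be told from 0 for a typical probe. The smallest 2-sided p that an exact permutation test of 3 against 3 samples allows is 0.1, which is why the fit across all probes was used.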

How the data were processed

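Sorted CD8+ T cells were measured with the NanoString nCounter Mouse Immune Exhaustion panel, which counts barcoded probes on RNA molecules without amplification, from lysates of 1000 to 5000 cells per microlitre per the labels' protocols. The authors deposited log2 values, normalized with ROSALIND software per the labels. The sources used here do not name its version, its treatment of background or the probes it scaled on. Taken out of the log, 100% of a sample's values were whole multiples of a single step (tolerance 0.01), which gave molecule counts and so the depth. Groups came from the treatment in the labels.

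limma 3.58.1 in R 4.3.3 (lmFit, and eBayes without a trend) was fitted with 4 group means to the log2 values of the 12 samples, 2-sided, with Benjamini-Hochberg adjustment over 773 probes and a threshold of 0.05. It was tested on simulated data. Members, background probes, 26 gene lists and tests were chosen with earlier results of these data known, and lists are described by counts and medians with no test. Named genes were the 15 largest differences in each direction among probes above background whose groups did not overlap, the 10 smallest p, up to 4 members of each list by smallest p and 24 fixed T cell genes. Cxcl9, Csf1r, Cd14, Ms4a1 and Cd4 were named outside that rule, after their values were seen. Gene names matched RefSeq symbols of GRCm38.p6 for 756 probes, and a promoter was the 250 bases before a start, printed only outside the annotated gene. Alternatives were another scaling (median, quantile, or voom on recovered counts), a floor, a filter, a pseudocount of 8, another prior, sample weights, a fit of 6 samples and each replicate left out.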

Additional observations from a re-analysis of the deposited data

How the results depend on the processing

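No probe passed under any of the 16 alternatives tried, 1 of which, the subtraction of background, was chosen after seeing the data. The smallest adjusted p lay between 0.0708, with a trend and robust prior, and 0.784, without CRT replicate 2, and probes with an unadjusted p under 0.05 numbered 37, without CRT replicate 2, to 156, with sample weights, against 76. No paired analysis was possible because the labels give no pairing of samples between groups. Of 1981 pairs of a named gene and an alternative, 41 reversed in sign, over 19 of 124 genes and list medians moved by over 1 SD in 34 of 416 pairs. The 95% interval reached a median of 1.03 to each side over the 306 probes not above background, against 0.49 over the 467 others. The cause of the reversals was not tested.

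Median centring gave 0.019 for H2-M3, 0.016 for Acadl, 0.030 for Acsl4, 0.030 for Klrd1, 0.036 for Ctla4, 0.014 for Ccr2, 0.098 for Havcr2, 0.082 for Cd8b1, 0.13 for Smad4 and 0.14 for Lag3. Quantile normalization gave -0.031 for Tnfrsf9 and -0.032 for Cd3d, and voom on recovered counts gave -0.0056 for Cd3d and -0.010 for Cd3g. Sample weights gave -0.064 for Cd3g and 0.18 for Lag3, and background subtraction 0.034 for Smad4.

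With each replicate left out in turn, differences ran from -0.28 to 0.13 for Ccr2, -0.47 to 0.061 for Cd22, -0.047 to 0.087 for Cd3d, -0.16 to 0.17 for Cd3g, -0.28 to 0.12 for Cd8b1, -0.21 to 0.024 for Ctla4 and -0.0084 to 0.30 for Gata3. They ran from -1.17 to 0.15 for H2-Eb1, -0.12 to 0.054 for Havcr2, -0.029 to 0.41 for Ifng, -0.17 to 0.30 for Lag3, -0.075 to 0.20 for Slamf6, -0.091 to 0.082 for Smad4 and -0.12 to 0.53 for Tnf.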
